A study of Rattus norvegicus with 26 samples.

Results

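The let-7 family was followed in rat liver after partial hepatectomy (PH), the surgical removal of part of the liver. Its members were the 8 miRNAs that the array design names rno-let-7a, rno-let-7b, rno-let-7c, rno-let-7d, rno-let-7e, rno-let-7f, rno-let-7i and rno-miR-98 (rno for rat, left out below), without their passenger (star) strands, out of 677 miRNAs on the array. The right liver lobe of 26 male Sprague-Dawley rats was profiled, with 1 single-colour (Cy3) array per rat. Normal livers came from 3 rats without PH. The other 8 groups had undergone 1/3 PH, in which the left lateral lobe was removed, or 2/3 PH, and were sampled after 6, 12, 24 or 36 h, with 2 rats at 6 h after 1/3 PH and 3 rats in each other group. The labels name no transgene or drug treatment, and the sources used here give no age. 1 label of the normal rats calls them sham operated, whereas the others and the study's methods describe rats without PH. Some source labels give 13, 14, 25, 26, 37 or 38 h where the titles give 12, 24 or 36 h, and the titles were followed.

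MicroRNAs of the let-7 family guide Argonaute proteins to messenger RNAs that pair with their seed, the bases near the 5′ end, and lower the stability and translation of those messages. The family was first known from the nematode, where let-7 times larval development. In mammals its mature forms rise with differentiation and are abundant in adult liver, the protein LIN28 blocks the maturation of their precursors, and RAS, MYC and HMGA2 transcripts are known targets. The study asked how miRNAs differ between 1/3 PH, which leads to little DNA replication, and 2/3 PH, which leads to marked regeneration.

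The mature sequences are shown because the members differ at few positions, which bears on how well probes can separate them. All 8 members matched a RefSeq mature miRNA (build GRCr8), and the capitals mark bases 2 to 8, the seed.

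let-7a: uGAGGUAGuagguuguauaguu

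let-7b: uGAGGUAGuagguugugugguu

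let-7c: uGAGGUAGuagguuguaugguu

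let-7d: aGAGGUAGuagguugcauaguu

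let-7e: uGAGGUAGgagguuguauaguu

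let-7f: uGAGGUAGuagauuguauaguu

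let-7i: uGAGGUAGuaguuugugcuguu

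miR-98: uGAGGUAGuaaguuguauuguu

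The 8 sequences shared 1 seed and were all 22 bases long. Counted from the 5′ end and relative to let-7a, let-7c carried A19G, let-7e carried U9G, let-7f carried G12A, let-7b carried A17G and A19G, let-7d carried U1A and U16C, miR-98 carried G11A and A19U, and let-7i carried G12U, A17G, U18C and A19U. Each of let-7c, let-7e and let-7f was thus 1 base away from let-7a. Among 693 mature rat miRNAs in the RefSeq table, 9 held this seed. The one outside the members was let-7g, and no miRNA of the array carried that name, so it was not analysed here. Whether the probes of 1 member took up signal from another was not tested.

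In the GRCr8 annotation the members came from 11 loci. The gene of let-7e, at chr1:67350243-67350264 on the plus strand and inside the bounds of the protein-coding gene Spaca6, lay 151 bases from the mature miR-99b sequence and 424 bases from that of miR-125a-5p. A cluster on chromosome 17 held let-7a (chr17:16320145-16320166), let-7f (chr17:16320508-16320529) and let-7d (chr17:16322273-16322294), inside a long non-coding RNA locus. The loci of let-7c and let-7b on chromosome 7 (chr7:118683636-118683657 and chr7:118684044-118684065) were 386 bases apart. On the X chromosome, let-7f (chrX:24460052-24460073) and miR-98 (chrX:24460663-24460684) lay inside the bounds of Huwe1. The remaining loci were let-7a at chr8:50805219-50805240, which was 6.89 kb from miR-100, let-7c at chr11:29688127-29688148, which was 44.4 kb from miR-125b-5p, and let-7i at chr7:60527935-60527956 on the minus strand. The array measures mature sequences, so it cannot tell which locus a let-7a, let-7c or let-7f molecule came from.

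All 8 members were detected on all 26 arrays, whereas 82 of the 677 miRNAs were. In normal liver the members together held 11.8%, 10.9% and 11.2% of the summed miRNA signal (mean 11.3% ± 0.446, SD, n = 3). The largest share belonged to let-7a, at 3.05% ± 0.0839, and it ranked 4 among all miRNAs by mean signal. Close behind, let-7f held 2.61% ± 0.168 and ranked 5. Next came let-7b with 2.02% ± 0.299 and let-7c with 1.98% ± 0.174, which did not differ beyond their spread. Lower signals were read for let-7d (0.977% ± 0.0589), let-7i (0.436% ± 0.0607) and let-7e (0.175% ± 0.0264), and miR-98 was dimmest with 0.0485% ± 0.00617 and rank 79. These are shares of probe signal and not of molecules, because probes of different miRNAs bind with different strength and no length or standard curve corrects for it.

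Across all 26 arrays the summed share of the family lay between 10.2% and 13.2%. For 1/3 PH the mean share was 11.8% (n = 2) at 6 h, 12.2% ± 0.422 (SD, n = 3) at 12 h, 11.1% ± 0.400 at 24 h and 10.9% ± 0.310 at 36 h. For 2/3 PH the 4 means were 12.2% ± 0.508, 12.4% ± 0.715, 11.5% ± 0.599 and 10.9% ± 0.539. The early arrays ran from 11.7% to 13.2% and the late ones from 10.2% to 12.1%, and both ranges overlapped. The liver label was checked with miR-122, the most abundant miRNA of hepatocytes, which held 47.03% to 59.3% of the signal on every array. Because all shares are parts of 1 sum, the share of the family depends on it, and with miR-122 left out of the sum the family held 24.6% ± 2.10 in normal liver.

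**Figure D1:**
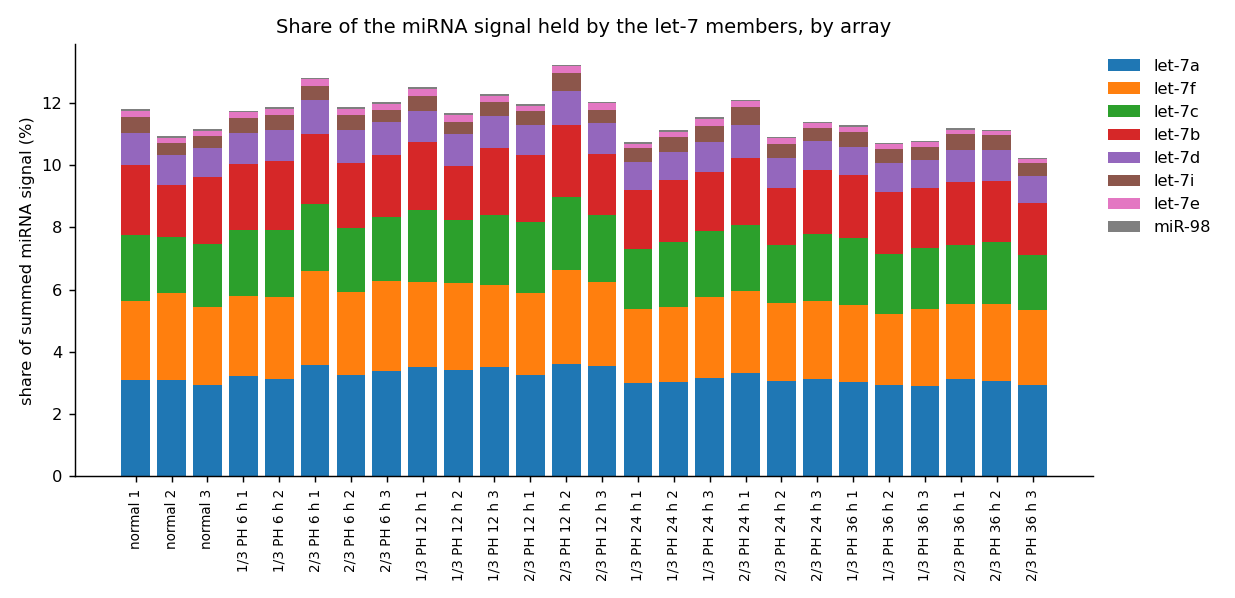
Stacked bars give the share of an array's summed miRNA signal, in percent, held by each let-7 member, for 26 arrays named by group and replicate. The stacks reach 10.2% to 13.2%, and let-7a, let-7f, let-7c and let-7b make up most of each.

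Levels below are log2 values of a miRNA's signal relative to the 75th percentile of the array, so that a level of 0 equals that percentile, and a comparison is a difference of group means from 1 limma fit over 144 miRNAs with Benjamini-Hochberg adjustment, called at an adjusted p under 0.05. The members were steady between replicates. The within-group SD was 0.07 for let-7f, the lowest of the 144 miRNAs tested, and 0.08 for let-7a, with 0.694% of the miRNAs below it. The other SDs were 0.10 for let-7d, 0.12 for let-7c and miR-98, 0.15 for let-7e, 0.18 for let-7b and 0.20 for let-7i, beside a median of 0.28 over all miRNAs tested. The labels name separate rats but say nothing of when each was operated on. The p-values measure the spread between arrays within groups, with no term for slide, and this spread holds differences of rats and of arrays. Some groups lay wholly on 1 slide, so their spread leaves out differences between slides.

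The array of 1/3 PH at 12 h, replicate 2, stood apart. It had a total signal of 18196 units against 58458 to 95463 on the others, with 91 miRNAs detected against 118 to 155. The 12 h values of let-7e and miR-98 and the late against early differences of let-7e after 1/3 PH and of let-7f after 2/3 PH are also given without it.

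**Figure D2:**
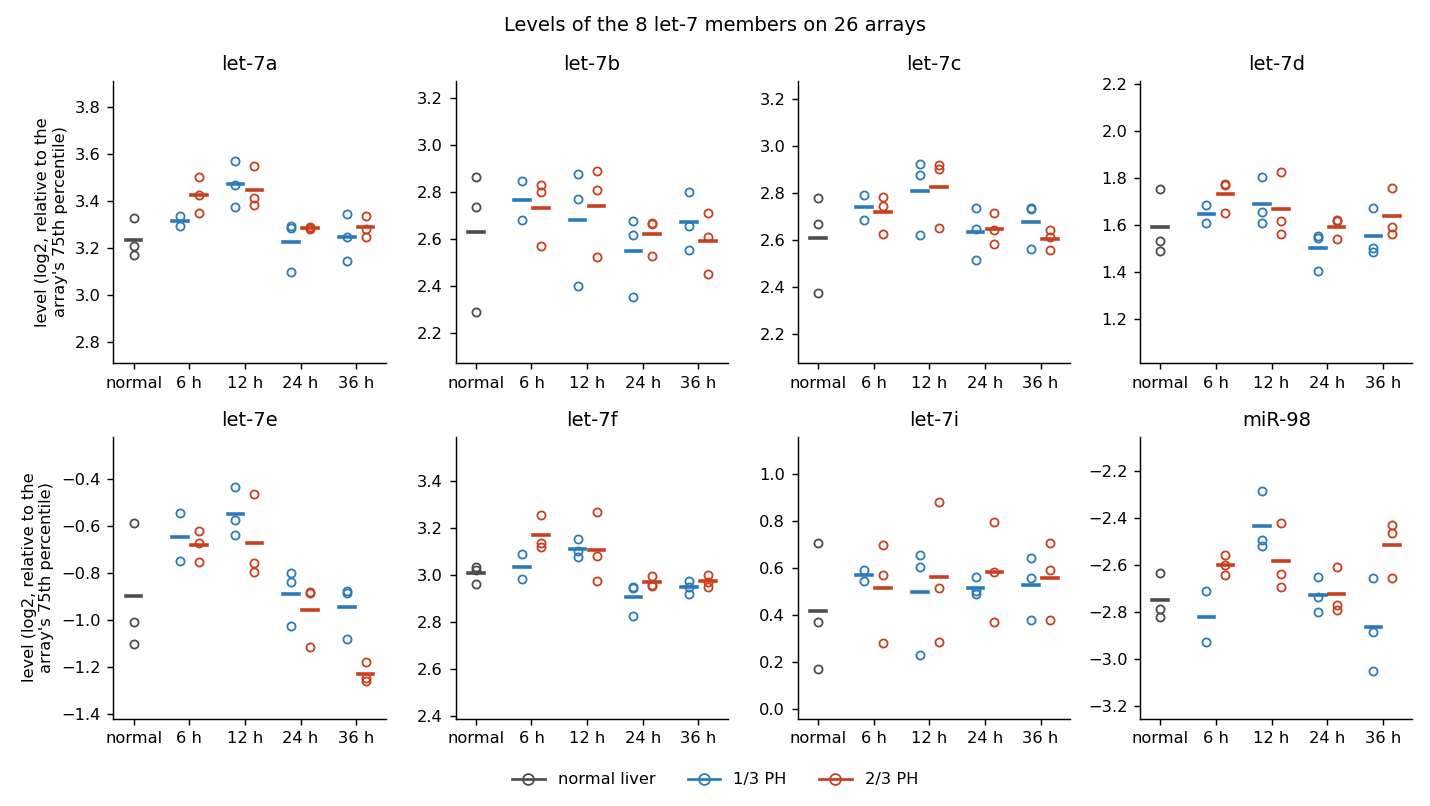
Each panel shows 1 member, with the level on each of 26 arrays (circles, log2 relative to the array's 75th percentile) and the group mean (bars) for normal liver and for both operations by hours after surgery; every vertical axis spans the same log2 range. Only let-7e has late (24 and 36 h) arrays that lie below all its early (6 and 12 h) arrays in both operations.

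No member passed the test against normal liver in any of the 8 operated groups. Over the 64 differences, 0 were called by limma, 6 had an unadjusted p under 0.05 (beside 16.8% of all miRNAs' values), and the lowest adjusted p was 0.0793. Among all 1152 differences of the 144 miRNAs in these comparisons, 6.08% were called. The 64 values ran from -0.33 to 0.35 on the log2 scale, that is from 0.796-fold to 1.28-fold, and their 95% intervals lay between 0.660-fold and 1.54-fold. These intervals do not show that the levels were equal. By the limits of 0.8-fold and 1.2-fold that the study used, 3 of the 64 were altered, beside 40.7% over all miRNAs. The groups did not overlap in 8 of the 64 comparisons, beside 25.3%.

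The 3 values past those limits belonged to let-7e and miR-98, the dimmest members. At 12 h after 1/3 PH, let-7e was at -0.58, -0.43 and -0.64, and the normal livers were at -0.59, -1.10 and -1.01. The difference was 0.35 ± 0.13 (SE), with an adjusted p of 0.100 by limma, and 1 normal array lay inside the operated range. At the same time miR-98 was at -2.49, -2.28 and -2.52 against -2.82, -2.63 and -2.78 in normal liver, a difference of 0.31 ± 0.12 with an adjusted p of 0.100. The array that stood apart was the highest of the 3 for both members, and without it the differences were 0.23 for let-7e (adjusted p 0.340) and 0.18 for miR-98 (adjusted p 0.505). Without scaling between arrays, which leaves its low total in the values, they were -0.40 and -0.44. At 36 h after 2/3 PH, let-7e was at -1.18, -1.26 and -1.25, below all normal livers, and the difference was -0.33 ± 0.13 (adjusted p 0.0793). The brightest member, let-7a, came close at 12 h after 1/3 PH, where it stood at 3.47, 3.38 and 3.57 against 3.33, 3.17 and 3.21 in normal liver (0.24 ± 0.09, adjusted p 0.104 by limma). Over the 26 fits that left out 1 array this difference was 0.19 to 0.28, with adjusted p from 0.0905 to 0.284. Without scaling between arrays, all 8 members were below normal liver in this group, where the median of all miRNAs was -0.65.

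**Figure D3:**
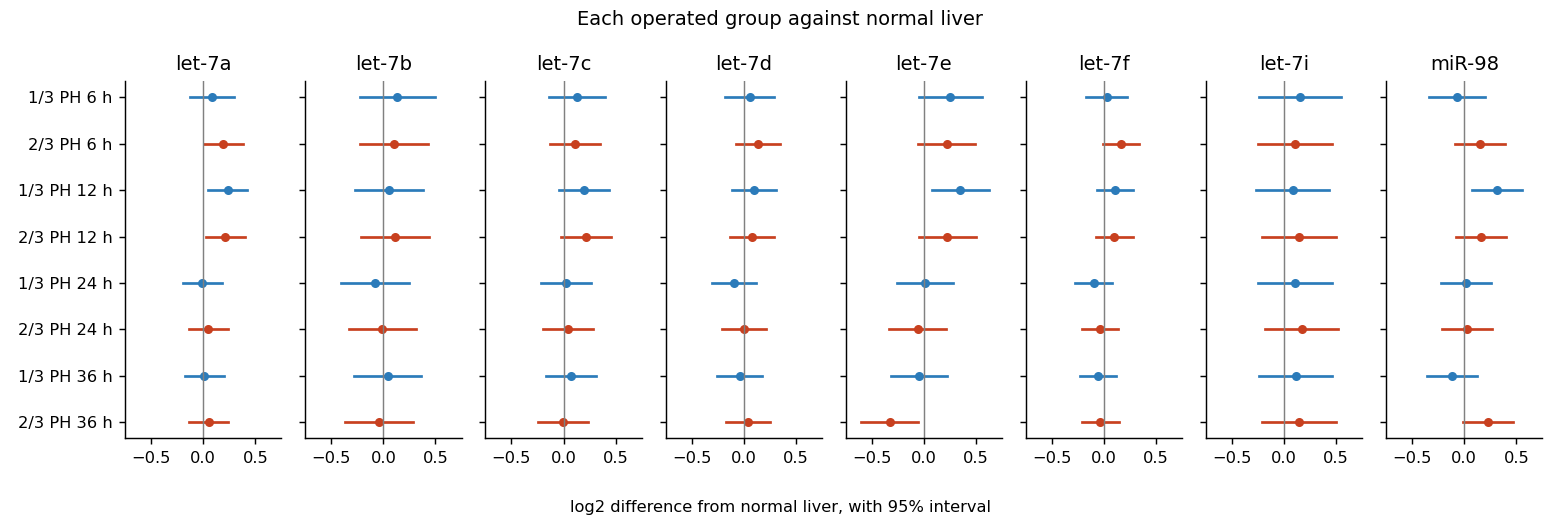
For each member, points give the log2 difference from normal liver and lines its 95% interval, in blue after 1/3 PH and in red after 2/3 PH, from 6 h at the top to 36 h at the bottom. All 64 points lie between -0.33 and 0.35.

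Averaged over the 4 times, the members differed from normal liver by -0.01 to 0.14 after 1/3 PH and by 0.01 to 0.14 after 2/3 PH, with 0 called in each (no unadjusted p under 0.05). The median over the 8 members was 0.06 and 0.08, beside 0.04 and 0.06 over all 144 miRNAs. Of all miRNAs tested, 0.00% were called for 1/3 PH and 11.1% for 2/3 PH. Without scaling between arrays, all 8 members were below normal liver in both averages, and the median of all miRNAs moved to -0.15 and -0.11 with them.

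The clearest pattern lay between the early and the late hours. The level of let-7e fell after both operations. After 2/3 PH it was at -0.62, -0.67 and -0.75 at 6 h and at -0.76, -0.47 and -0.80 at 12 h. It was at -0.89, -0.88 and -1.12 at 24 h and at -1.18, -1.26 and -1.25 at 36 h. All 6 late arrays lay below all 6 early arrays, and the fall was 0.42 ± 0.09 on the log2 scale, to 0.749-fold (95% interval 0.656-fold to 0.856-fold), with an adjusted p of 0.00117 by limma.

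After 1/3 PH, let-7e was at -0.75 and -0.55 at 6 h and at -0.58, -0.43 and -0.64 at 12 h. It was at -1.03, -0.84 and -0.80 at 24 h and at -0.89, -0.88 and -1.08 at 36 h. Again no late array reached the early range, and let-7e fell by 0.32 ± 0.10, to 0.802-fold (adjusted p 0.0423). This call was lost in 17 of the 26 fits that left out 1 array, with differences of -0.37 to -0.25 and adjusted p up to 0.295. These were the fits without any 1 array at 6 or 36 h, or without replicate 1 or 2 at 12 or 24 h, after 1/3 PH, and without replicate 1 or 3 at 6 h, replicate 1 at 12 h, replicate 1 or 2 at 24 h or any 1 array at 36 h after 2/3 PH. Without the array that stood apart the difference was -0.25 (adjusted p 0.0957), and without scaling between arrays it was 0.05. The falls in the 2 operations were not shown to differ (2/3 PH minus 1/3 PH -0.10 ± 0.13, 95% interval -0.38 to 0.18, adjusted p 0.795, with 0 of 8 members called beside 6.94% of all miRNAs).

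In the order of its group means, let-7e was highest at 12 h after 1/3 PH (-0.55 ± 0.11, SD), followed by 6 h after 1/3 PH, 12 h after 2/3 PH and 6 h after 2/3 PH (-0.68 ± 0.07), and each of these overlapped its neighbour. The next group, 24 h after 1/3 PH (-0.89 ± 0.12), did not overlap 6 h after 2/3 PH. Normal liver (-0.90 ± 0.27), 36 h after 1/3 PH (-0.95 ± 0.11) and 24 h after 2/3 PH (-0.96 ± 0.14) followed, each overlapping its neighbours, and the normal array at -0.59 lay inside the early range. The 3 arrays at 36 h after 2/3 PH (-1.23 ± 0.04) were lower than all others.

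Dividing an array by 1 factor cannot move the ratio of miRNAs on it, so let-7e was also set against the mean of the other 7 members. This ratio, which was chosen after the values were seen and carries no test, was -2.42 to -2.31 on the log2 scale on the 6 early arrays of 2/3 PH and -2.84 to -2.43 on the 6 late ones. The 3 arrays at 36 h after 2/3 PH, at -2.84 to -2.79, were lower than the other 23. After 1/3 PH the early range was -2.41 to -2.01 and the late range -2.56 to -2.23, and these overlapped. The late minus early difference of the ratio was -0.32 after 2/3 PH and -0.20 after 1/3 PH.

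Each member is read by 2 probes with 10 spots each, and both probes of let-7e were well above background on every array. After 2/3 PH its brighter probe (109 units in normal liver) differed by -0.40 between late and early, and its dimmer probe (27.7 units) by -0.49, with overlap of early and late arrays for the brighter probe alone. After 1/3 PH they differed by -0.31 and -0.37. Without scaling between arrays, the brighter and the dimmer probe differed by -0.30 and -0.39 in 2/3 PH, and by 0.06 and -0.01 in 1/3 PH.

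The arrays were scanned on 3 days, which held unequal numbers of early and late arrays. On the first day, the 3 arrays at 24 h after 2/3 PH had a mean let-7e level of -0.96 and the 4 early arrays one of -0.63, a difference of -0.33 without overlap. On scan day 3, 1 late array stood at -1.25 and 2 early arrays at -0.78 on average. For 1/3 PH the first day gave -0.31 (5 late and 4 early arrays, no overlap) and scan day 3 gave -0.37 with 1 array on each side. With scan day as a term in limma's fit, the difference was -0.39 after 2/3 PH (adjusted p 0.00715) and -0.32 after 1/3 PH (adjusted p 0.0382).

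The arrays also lay on 6 slides. For 2/3 PH no slide held both early and late arrays, so slide and hour cannot be told apart there. For 1/3 PH 2 of the slides held both, but only with arrays at 12 and 24 h. The 6 h arrays of 1/3 PH all lay on slide 4 and its 36 h arrays on slide 2. These times therefore had no late against early comparison within a slide. On slide 1 the 2 arrays at 24 h had a mean let-7e level of -0.93 and the 1 array at 12 h stood at -0.64, a difference of -0.29. On slide 5 the difference was -0.37, with 1 array on each side, the early one being the array that stood apart. With slide as a random block in limma's fit, the difference was -0.40 after 2/3 PH (adjusted p 0.00641) and -0.28 after 1/3 PH (adjusted p 0.165), where the call was lost.

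The other members moved less. The level of let-7f fell after 2/3 PH by 0.17 ± 0.06 on the log2 scale (0.890-fold, adjusted p 0.0333), from 3.12 to 3.26 at 6 h and 2.98 to 3.27 at 12 h to 2.96 to 3.00 at 24 h and 2.95 to 3.00 at 36 h. All 6 late arrays were below the early mean, but the lowest early array lay inside the late range. This call held in 18 of 26 fits that left out 1 array. It was lost without replicate 1 at 6 h, replicate 2 at 12 h, replicates 1 and 3 at 24 h and replicates 1 and 2 at 36 h after 2/3 PH, and without replicate 1 at 6 h and replicate 2 at 12 h after 1/3 PH, with values of -0.17 to -0.13. With scan day as a term the adjusted p was 0.0734, with slide as a random block it was 0.0700, without the array that stood apart it was 0.0670, and within scan days 1 and 3 the differences were -0.22 and -0.05. The difference for let-7a was -0.15 ± 0.06 after 2/3 PH (adjusted p 0.0774), with late arrays at 3.25 to 3.34 and early ones at 3.35 to 3.55 and no overlap. For let-7c it was -0.15 ± 0.08, and for let-7b, let-7d, let-7i and miR-98 the values after 2/3 PH were -0.13, -0.09, 0.03 and -0.03, none of which was called.

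Read against the background, 2 of 8 members were called after 2/3 PH, both lower, where 34.7% of all miRNAs were called and 16% were called lower. For 1/3 PH, 1 of 8 members was called, beside 9.72% of all miRNAs and 2.78% called lower. Early and late arrays did not overlap for 2 of 8 members in each operation, let-7e and let-7a after 2/3 PH (beside 16.7%) and let-7e and let-7f after 1/3 PH (beside 4.86%). The median of the 8 members was -0.14 after 2/3 PH and -0.14 after 1/3 PH, beside 0.04 and -0.08 over all 144 miRNAs. With scaling the difference was below 0 for 8 of 8 members after 1/3 PH and for 7 of 8 after 2/3 PH. Without scaling these counts were 0 and 5, and the median of all miRNAs was 0.29 and 0.14. The direction of the family as a whole after 1/3 PH thus depends on whether arrays are scaled, and the unscaled early group holds the dim array that stood apart. After 1/3 PH, quantile normalization, total signal and the percentile over all probes gave 7, 7 and 8 of 8 members below 0, and the deposited values 6. This direction also rests on the spot rule. With scaling but with all spots kept, 3 of 8 members were below 0 after 1/3 PH, and the members' median was 0.02.

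**Figure D4:**
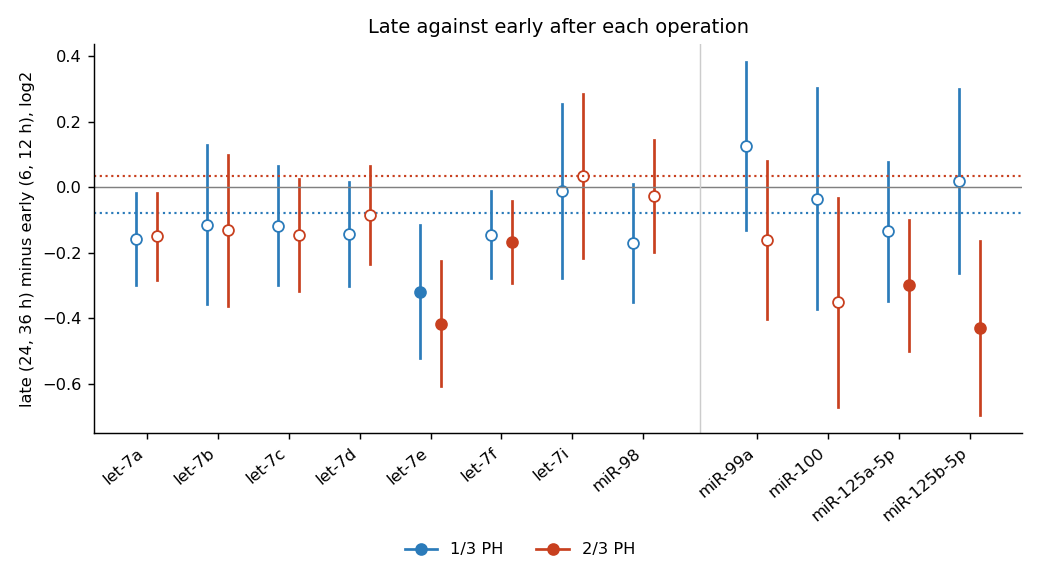
Points give the log2 difference between late (24 and 36 h) and early (6 and 12 h) arrays with 95% intervals for the 8 members and 4 cluster partners, in blue after 1/3 PH and in red after 2/3 PH; filled points have an adjusted p under 0.05, and dotted lines mark the median of all 144 miRNAs. The points of let-7e are the lowest of the 8 members in both operations.

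Between the operations, 1 of 32 differences passed the test, beside 4.51% of the 576 differences of all miRNAs. It was miR-98 at 36 h, at -2.46, -2.65 and -2.43 after 2/3 PH and at -2.66, -2.88 and -3.05 after 1/3 PH. The groups did not overlap, as in 36.1% of all miRNAs, but the closest arrays, at -2.6546 and -2.6555, nearly touched. The difference was 0.35 ± 0.12 (1.27-fold, 95% interval 1.08-fold to 1.503-fold) with an adjusted p of 0.0472 by limma. In that comparison 15.3% of all miRNAs were called and 10.4% were called higher. All arrays at 36 h after 1/3 PH lay on 1 slide scanned on the first day, and all at 36 h after 2/3 PH lay on other slides scanned on the other days, so slide, scan day and operation cannot be told apart there. The brighter probe of miR-98, at 23.6 units in normal liver, differed by 0.37, whereas its dimmer probe, well above background on 16 of 26 arrays, differed by 0.07. Leaving out 1 array kept the call in 3 of 26 fits, those without replicate 2 at 12 h after either operation or replicate 1 at 36 h after 1/3 PH, and over the 26 fits the difference was 0.25 to 0.45 with adjusted p up to 0.248.

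The other members at 36 h differed between the operations by -0.28 to 0.08, and the members' median was 0.03 beside -0.12 over all miRNAs. Of these, let-7e was lower after 2/3 PH on all 3 arrays (-0.28 ± 0.13, adjusted p 0.184). Over the 4 times the operations did not overlap in 6 of 32 comparisons, beside 19.1% of all miRNAs' values. At 6, 12 and 24 h the differences ran from -0.15 to 0.22, with 0 called and 0 with an unadjusted p under 0.05. Averaged over the 4 times, the 8 differences were -0.13 to 0.11 with 0 called (beside 3.47% of all miRNAs, and again no unadjusted p under 0.05 among members).

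For 3 members the scan day, and also the slide, carried more of the variation between arrays than the groups did. The level of let-7b was 2.29 to 2.57 on the 6 arrays of scan day 3, 2.53 to 2.89 on the 17 arrays of the first, and 2.61 to 2.74 on the 3 of the second. Scan days held 60.5% of its variation, slides 72.1% and the 9 groups 17.2%. For let-7i scan days, slides and groups held 49.1%, 52.2% and 7.8%, and for let-7c 41.7%, 60.5% and 38.0%. For let-7e the groups held 74.1%, scan days 25.6% and slides 62.4%, so slides and groups shared much of its variation. In the same order the shares were 69.4%, 8.2% and 34.2% for let-7f and 64.2%, 12.6% and 27.4% for miR-98. These shares overlap and do not add up. A factor with more classes takes up more variation even without an effect, and there were 3 scan days, 6 slides and 9 groups. No allowance was made for this.

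The members varied together to different degrees. Across 26 arrays the Pearson correlations of the 28 pairs ran from -0.04 to 0.88, with a median of 0.59, as a description over arrays that share their scaling. The highest were let-7b with let-7c (0.88), which neighbour each other on chromosome 7, let-7a with let-7f (0.85) and let-7a with let-7d (0.85), which share the cluster on chromosome 17. The neighbours on the X chromosome, let-7f and miR-98, were at 0.49. In sequence, let-7b and let-7c differ at 1 base, let-7a and let-7f at 1 and let-7a and let-7d at 2. Whether shared loci or shared probe signal underlies these correlations was not tested. The 7 pairs with miR-98 had a median of 0.24, and the 21 others one of 0.63. After the mean of each scan day was subtracted, let-7a with miR-98 was at 0.72 and let-7b with miR-98 at 0.38, against 0.52 and -0.04 before.

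Outside the family, the 5 miRNAs most like the mean of the members over 26 arrays, among 74 others detected on every array, were miR-652 (r = 0.69), miR-3588 (0.64), miR-125a-5p (0.64), miR-122 (0.64) and miR-511* (0.54). The least like were miR-101b (r = -0.73) and miR-29b (-0.70). Over the 9 group means these 2 reached -0.95 and -0.95, but other miRNAs came close, the next at -0.92. Of the 5 most alike, miR-122 reached 0.78, and miR-652, miR-3588, miR-125a-5p and miR-511* were at 0.70, 0.50, 0.64 and 0.60.

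Of the 5 miRNAs that share a cluster with a let-7 gene in mammals, miR-99a, miR-125a-5p and miR-125b-5p were detected on all 26 arrays, miR-100 on 23 and miR-99b on 2, so 4 were tested. Against normal liver and between early and late hours after 1/3 PH, 0 of 4 were called. In 2/3 PH 2 of 4 were called between early and late hours, both lower, where 34.7% of all miRNAs were called and 16% were called lower. The partner of let-7e, miR-125a-5p, fell by 0.30 ± 0.10 on the log2 scale (adjusted p 0.0190), from -3.30 to -2.98 on the early arrays to -3.73 to -3.19 on the late ones, with overlap. Within the first scan day its difference was -0.15, with overlap (3 late and 4 early arrays). Within scan day 3 it was -0.40 (1 late and 2 early arrays). Only 1 of its probes was bright enough to compare, at -0.29. For this and every other late against early difference after 2/3 PH, slide and hour cannot be told apart. The level of miR-125b-5p, which has a locus 44.4 kb from a let-7c locus, fell by 0.43 ± 0.13 (adjusted p 0.0122 by limma). At 36 h miR-125a-5p was also lower after 2/3 PH, at -3.73 to -3.55, than after 1/3 PH, at -3.41 to -3.06 (-0.42 ± 0.14, adjusted p 0.0465), with the same confounding of operation, slide and scan day as for miR-98. Its signal was low, with its brighter probe at 24.5 units in normal liver.

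The passenger strands were near background. Of 9 such strands on the array, let-7b* was detected on 17 arrays, let-7a-1* on 2 and the other 7 on none. Only let-7b* could be tested, and its differences between late and early hours were -0.27 ± 0.60 after 1/3 PH and 0.14 ± 0.57 after 2/3 PH, with 0 calls in any comparison.

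Markers of other liver cell types were read beside the fall of let-7e. The biliary markers miR-200a, miR-200b and miR-429 were higher in the late than in the early hours after 2/3 PH by 0.56, 0.65 and 0.83 (adjusted p 0.0462, 0.0167 and 0.00386 by limma), whereas miR-200c and miR-141 were detected on no array. Of the 5 biliary markers only 1 was detected on every array, so some of these values lie near background. No slide held both early and late arrays of 2/3 PH, so slide and hour cannot be told apart for any marker there. The summed share of the 5 biliary markers was 0.0626% to 0.112% of the signal in the early groups of 2/3 PH and 0.107% to 0.201% in the late ones. The lymphocyte marker miR-150 was lower by 0.51 (adjusted p 0.00117 by limma), 1 of 3 leukocyte markers tested. In this comparison 34.7% of all miRNAs were called, with 27 of 144 called higher and 23 called lower. The markers of endothelium (miR-126), stellate or smooth muscle cells (miR-143), red cells (miR-451) and hepatocytes (miR-122) differed by -0.11, -0.03, 0.04 and -0.14, none of which was called. Of the other leukocyte markers, miR-142-3p differed by -0.13 and miR-223 by -0.21, uncalled, miR-142-5p was detected on no array, and miR-155 was not on the array. The second stellate or smooth muscle marker, miR-145, was detected on no array. The listed markers miR-144 (red cells) and miR-126* (endothelium) were detected on too few arrays to be tested. For 1/3 PH, where the biliary share was 0.0660% to 0.203% early and 0.0649% to 0.160% late, no marker was called between early and late hours, beside 9.72% of all miRNAs. The part of these cell types in the fall of let-7e was not tested, and in whole-liver RNA fewer cells of a type and less of a miRNA per cell cannot be told apart.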

How the data were processed

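Total RNA of right liver lobes was hybridized by the authors to rat miRNA arrays (677 miRNAs, 1644 probes), and the fluorescence intensity of each spot was read out and background-subtracted in Agilent Feature Extraction 10.7.3.1, named in the submitters' processing notes. A further deposited table holds log2 values (699 rows, 22 of them controls) that the authors normalized between arrays, and it served as an alternative. Groups followed the titles, and 1 array of 1/3 PH at 6 h that the authors left out was not used here. Spots marked as outliers were left out, spots averaged per probe, probes summed per miRNA, and each array divided by its 75th percentile over 109 probes well above background on all arrays. Signals below that of the dimmest probe well above background on the same array were set to it, and log2 was taken. A miRNA entered the fit if all arrays of 1 or more groups detected it, which left 144, fitted with limma 3.58.1 (R 4.3.3; lmFit, eBayes, 17 residual degrees of freedom, 18 contrasts) with Benjamini-Hochberg adjustment within each. Late minus early compares the mean of 24 and 36 h with that of 6 and 12 h, each time weighted equally. Python 3.11.15, numpy 2.4.6, pandas 2.3.3 and matplotlib 3.10.9 served for the rest, with scipy 1.17.1 for intervals, and the fit was tested on simulated data.

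The members and lists were chosen with earlier results of these data known. Named miRNAs are all members, the 5 miRNAs most and 2 least correlated with the members' mean, cluster partners, passenger strands and cell type markers. The number of arrays limits the precision. Alternatives covered scaling, background, spot and probe rules, filter, slide, scan day, fit and each array left out. The differences within scan days and within slides, the correlations after removal of scan day means and the ratio of let-7e to the other members were chosen after seeing the data.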

Additional observations from a re-analysis of the deposited data

Results flagged for a closer look

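The level of miR-98 at 36 h differed between the operations, with 2/3 PH above 1/3 PH by 0.35 on the log2 scale in limma's test of the difference itself (adjusted p 0.0472). It was higher than the mean of 1/3 PH on 3 of 3 arrays. The call was fragile: it held in 3 of 26 fits that left out 1 array. Of 17 other settings it held in 3, among them the unadjusted p. In the deposited values the difference was 0.0082. The operations lay on different slides and were scanned on different days at this time, so operation, slide and scan day cannot be told apart. No other member passed the test between the operations at any time, or in the interaction of operation and time.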

How the results depend on the processing

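Members called are counted first. Against normal liver, where 0 were called, scaling to the percentile over all probes or keeping all spots gave 1 at 6 h after 1/3 PH; quantile normalization gave 1 at 12 h after 1/3 PH, 2 at 12 h and 1 at 36 h after 2/3 PH; total signal gave 1 at 36 h after 2/3 PH; unadjusted p gave 3 at 12 h after 1/3 PH and 1 each at 6, 12 and 36 h after 2/3 PH. Between operations, the percentile over all probes gave 4 and all spots 1 at 6 h, and quantile normalization and all spots gave 1 each over the mean of times. At 36 h the count fell from 1 to 0 in 13 settings, and unadjusted p gave 2. For miR-98 the difference there was 0.22 without scaling, 0.83 with the percentile over all probes, 0.20 with quantile normalization, 0.34 with total signal, 0.66 with normexp, 0.35 with the software's total gene signal, 0.37 with the brightest probe, 0.36 with all spots, 0.0082 in the deposited values, 0.35 with detection on any array, in the fit of only these groups and with a trend, 0.36 with slide as a random block and 0.37 with scan day, uncalled in each. Late against early after 1/3 PH, the count fell from 1 to 0 in 11 settings, and unadjusted p gave 3. There let-7e was 0.0466 without scaling, a reversed sign, -0.68 with the percentile over all probes, -0.23 with quantile normalization, -0.30 with total signal, -0.27 with normexp, -0.34 with total gene signal, -0.31 with the brightest probe, -0.0895 in the deposited values, -0.32 with detection on any array and with only these groups, and -0.28 with slide as a random block. After 2/3 PH the count of 2 became 0 without scaling, with the percentile over all probes and with normexp, and 1 with quantile normalization, the brightest probe, all spots, the deposited values, detection on any array, slide, scan day and only these groups. There let-7e was -0.31, -0.49 and -0.18 in the first 3 of these, uncalled, and kept its call in the other 14 of 17 settings and in 26 of 26 fits without 1 array (-0.45 to -0.36). In the settings that lost it, let-7f was -0.0649, -0.24, -0.16, -0.0421, -0.17, -0.0896, -0.0783, -0.17, -0.16, -0.14 and -0.17, in the order just given. Leaving out 1 array gave let-7e -0.37 to -0.25 after 1/3 PH, let-7f -0.20 to -0.13 and miR-98 0.25 to 0.45, and counts of 0 to 1 at 12 h after 1/3 PH and 36 h after 2/3 PH against normal, 0 to 1 at 36 h between operations, 0 to 1 late after 1/3 PH and 1 to 2 late after 2/3 PH. The members' median minus that of all miRNAs moved to 0.0117 (quantile) and -0.59 (normexp) at 36 h between operations, to -0.13 (all spots) and 0.18 (deposited) for the mean of 1/3 PH and -0.31 (normexp) for that of 2/3 PH against normal, to 0.18 (normexp) and -0.30 (deposited) late after 1/3 PH and to -0.0386 (quantile) late after 2/3 PH. The normal share was 12.0% from the brightest probe and 24.6% without miR-122 in the sum. The cause was not tested. Slide as a fixed block could be fitted in 10 of 18 comparisons. No paired analysis was run, because each rat gave 1 array and the labels pair no rats between groups. Signals near background limit miR-98 and miR-125a-5p.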
